A study of Caenorhabditis elegans with 4 samples.

Results

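The clec genes of Caenorhabditis elegans encode proteins with C-type lectin-like domains. They were taken as every gene identifier in the count table whose symbol starts with clec-, which gave 240 of 20392 identifiers, all annotated as protein coding, under 237 different symbols. RNA was sequenced from whole first-stage (L1) larvae, left to hatch in M9 buffer for 18 h and then refed for 2 h 30 min. The larvae under study carried met-1-/- (strain GW1183) and were fed, like their parents, bacteria for RNAi against mes-4, with 2 libraries (met-1 mes-4(RNAi) larvae, here also met-1 mes-4 larvae). The controls were wild type larvae of strain N2 fed bacteria with L4440, also with 2 libraries. MET-1 and MES-4 are methyltransferases of lysine 36 of histone H3, and the series asked how gene expression changes when that mark is depleted. Mutation and RNAi were always combined and the strains differ, so these factors cannot be told apart. The series text calls the 2 libraries of a group independent biological replicas.

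C-type lectin-like domains are compact folds held by disulfide bonds, and in many animal proteins they bind sugars in a calcium-dependent way. In C. elegans the family is large, most of its predicted proteins are secreted or membrane bound, and for most members no ligand is known. Many clec genes are expressed in the intestine and change when worms meet pathogenic bacteria, so they are widely used as markers of the intestinal immune response, while a few act elsewhere, such as clec-38, which is known from axon guidance.

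Totals were 29081819 and 35106597 counts in met-1 mes-4 larvae and 33272359 and 32593317 in wild type larvae. The met-1 transcript stood at 119.8 and 110.5 CPM (counts scaled to equal library totals) in met-1 mes-4 larvae, against 172.4 and 158.6 CPM in wild type larvae. The mes-4 transcript stood at 27.3 and 28.1 CPM, against 34.4 and 35.9 CPM in wild type larvae. Both targeted transcripts were lower without overlap between the groups, and a count per gene does not tell an intact transcript from a mutated one. Summed markers of the intestine reached 5457 and 5426 CPM in met-1 mes-4 larvae, against 6099 and 5269 CPM in wild type larvae, and those of the germline 168.7 and 184.2 CPM, against 168.5 and 181.8 CPM. Both sums overlapped between the groups.

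In wild type larvae a minority of the family was expressed. With at least 1 CPM in both wild type libraries as the mark, 86 of 240 clec genes (35.8%) were expressed, against 59.6% of all genes in the table. Reads were found in at least 1 of the 4 libraries for 210 clec genes and in no library for 30. A gene at 1 CPM rests on 29.1 reads in the smallest library, so the mark is well above a stray read. Per kilobase of gene model, the expressed clec genes had a median level of 7.40 RPKM (CPM per kilobase), against 14.6 RPKM for all expressed genes. Levels spanned a wide range: 31 clec genes reached a mean of 10 RPKM and 3 reached 100 RPKM.

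The most abundant member was clec-63 (WBGene00009394, chromosome II), at 601.6 and 601.8 RPKM in the wild type libraries, rank 134 among all genes of the table. It alone took 28.0% and 30.6% of all clec reads in wild type. Next came clec-50 (chromosome V), at 391.2 and 358.8 RPKM, and clec-1 (chromosome V), at 213.1 and 116.4 RPKM. In clec-1 the wild type libraries thus differed widely, though its lower value was still above both values of the next gene. The gene clec-265 on the X chromosome averaged 88.6 ± 10.4 RPKM and clec-65 on chromosome II 78.8 ± 5.91 RPKM (SD, n = 2), and their ranges overlapped. The next 7 genes in the order were clec-149, clec-173, clec-42, clec-84, clec-10, clec-57 and clec-150, from 55.6 ± 7.46 RPKM down to 37.7 ± 2.64 RPKM. The ranges of neighbours overlapped throughout this stretch, so its order is not resolved by 2 libraries. Of these 12 genes clec-42 is known from work on infection with Bacillus thuringiensis.

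**Figure D1:**
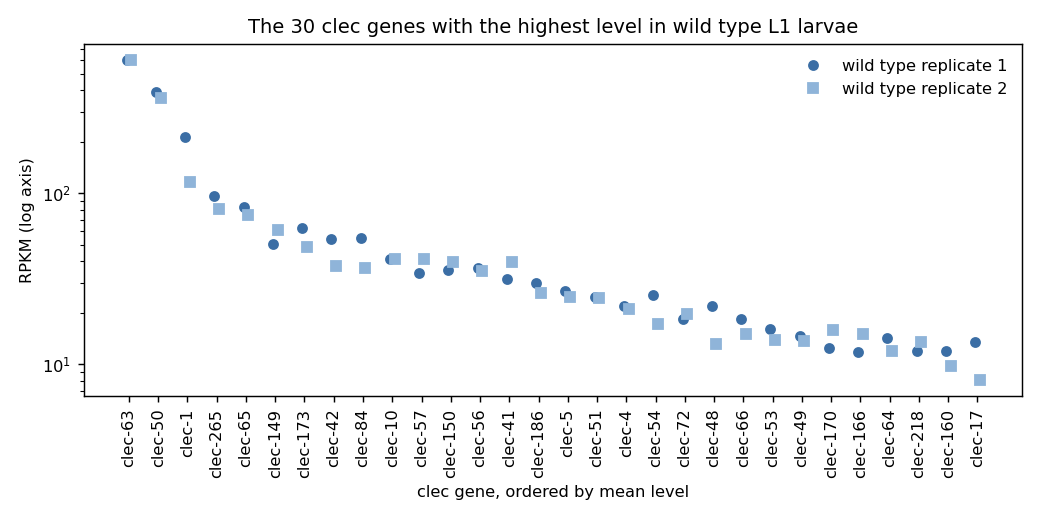
Level of the 30 most abundant clec genes in wild type L1 larvae, in RPKM on a log axis, with 1 point per library. The genes clec-63, clec-50 and clec-1 stand above the rest, and from clec-149 onwards the points of neighbouring genes interleave.

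Expression was uneven along the genome. The expressed genes were 27 of 53 on chromosome IV (50.9%), 33 of 86 on V (38.4%), 13 of 48 on II (27.1%), 4 of 14 on III (28.6%), 7 of 36 on I (19.4%) and 2 of 3 on X. Taking clec genes with at most 2 other protein-coding genes between neighbours as a cluster, there were 21 clusters of 3 or more, which held 103 clec genes. Of these clustered genes 39 were expressed, against 47 of the 137 outside clusters. Some whole clusters held almost no reads. The 7 genes from clec-93 to clec-99 on chromosome I summed to 0.138 and 0.0285 CPM in met-1 mes-4 larvae, against 0.0902 and 0.0920 CPM in wild type larvae. In the cluster from clec-62 to clec-66 on chromosome II, by contrast, all 5 genes were expressed.

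The second question was which clec genes differ in met-1 mes-4 larvae. A filter on low counts left 114 of the 240 clec genes among 15008 tested genes. With edgeR's quasi-likelihood test, adjusted over all tested genes at a threshold of 0.05, 0 clec genes were called higher and 0 lower, the same as over all genes (0.0% in each direction). At an unadjusted edgeR p under 0.05 there were 11 higher clec genes (9.65%) and 2 lower (1.75%), against 7.74% higher and 6.82% lower over all tested genes. DESeq2, the second count test, called 2 higher, clec-52 and clec-71, and 1 lower, clec-53, or 1.75% and 0.877% of the tested clec genes, against 2.45% higher and 1.92% lower over all genes. In this fit, which took no account of replicate number, the share of the family called by DESeq2 was therefore no higher than the background in either direction. The words "rose" and "fell" refer to these DESeq2 calls alone.

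The tested clec genes had a median log2 fold change (met-1 mes-4 over wild type) of 0.14, with the middle of the distribution, from quartile to quartile, between -0.16 and 0.44. Over all tested genes the median was 0.01, with quartiles of -0.19 and 0.28. A positive log2 fold change was found for 68 of the 114 (59.6%), against 51.5% of all tested genes. The groups did not overlap for 39 higher clec genes (34.2%) and 13 lower ones (11.4%), against 27.1% and 18.3% of all tested genes. The median was 0.0287 when met-1 mes-4 replicate 1 was left out and 0.0306 when wild type replicate 2 was, so the small shift of the family depends on these libraries. It was 0.13 among the 38 clec genes with a mean of at least 10 CPM over the 4 libraries, against -0.05 for all genes at that level.

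Changes of at least 2-fold were few in number, but their shares were above those of all tested genes in both directions. They numbered 10 higher clec genes (8.77%) and 5 lower (4.39%), against 6.62% and 1.55% of all tested genes. The lower ones included clec-87, clec-88 and clec-91, whose groups overlapped. The summed level of the family was 3033 and 2774 CPM in met-1 mes-4 larvae, against 2828 and 2584 CPM in wild type larvae, with overlap between the groups. In whole larvae, fewer cells that express a gene and less RNA per cell cannot be told apart.

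**Figure D2:**
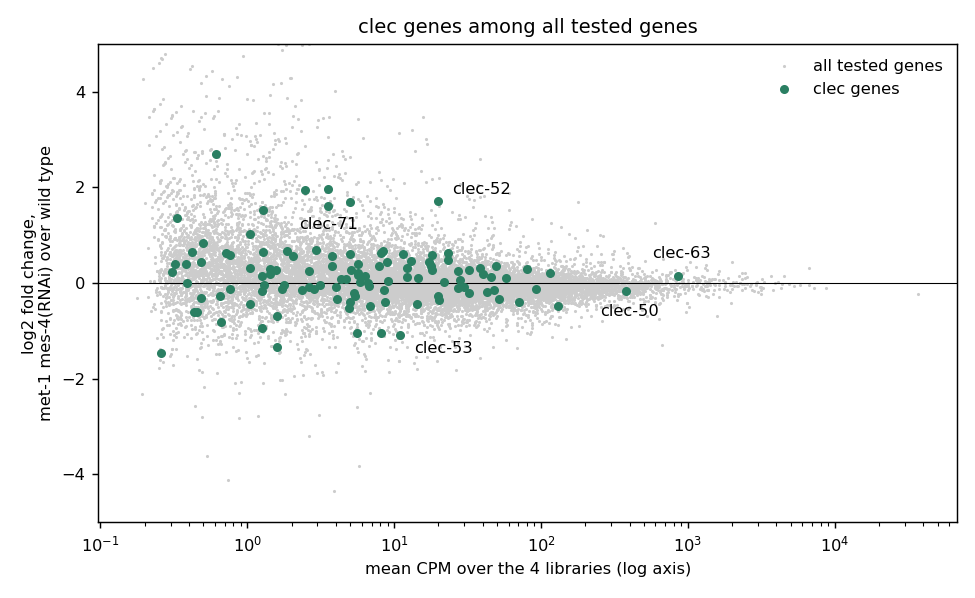
Log2 fold change (met-1 mes-4(RNAi) over wild type, edgeR) against mean CPM over the 4 libraries (log axis) for all tested genes (grey) and tested clec genes (green). Most clec genes lie near 0, while clec-52 and clec-71 stand above and clec-53 below. The 24 genes beyond a log2 fold change of 5 in either direction, clec-238 among them, are not drawn.

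The clearest rise was that of clec-52 (WBGene00015052, chromosome IV), a gene known to be induced by infection with Staphylococcus aureus. It had 33.97 and 26.98 CPM in met-1 mes-4 larvae, against 10.2 and 7.64 CPM in wild type larvae. The lower of the met-1 mes-4 libraries thus lay well above the higher of the wild type libraries. The log2 fold change was 1.72 (SE 0.19), a 3.29-fold difference, with an adjusted p of 0.0617 in edgeR and 1.87e-09 in DESeq2. DESeq2 called clec-52 with any single library left out (adjusted p from 2.5e-05 to 0.00253), and edgeR called it when no filter on low counts was used (adjusted p = 0.0289). Its neighbour in name, clec-51 on the same chromosome, was looked up after the value of clec-52 was seen and had 26.0 and 32.6 CPM in met-1 mes-4 larvae, against 30.1 and 29.8 CPM in wild type larvae, with overlapping groups. It shares exon sequence with faah-1 on the opposite strand, so its reads may not all be its own.

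The second rise, of clec-71 (WBGene00021582, chromosome IV), was less secure. It is also known from the response to Staphylococcus aureus. The values were 7.12 and 3.70 CPM in met-1 mes-4 larvae, against 1.86 and 1.503 CPM in wild type larvae, without overlap. The log2 fold change was 1.62 (SE 0.37), with an adjusted p of 0.162 in edgeR and 0.0208 in DESeq2. The DESeq2 call ended whichever library was left out, with adjusted p from 0.12 without met-1 mes-4 replicate 2 to 0.9997 without met-1 mes-4 replicate 1.

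Only clec-53 (WBGene00020191, chromosome I) fell by DESeq2. It had 5.43 and 8.74 CPM in met-1 mes-4 larvae, against 15.7 and 13.7 CPM in wild type larvae. Both met-1 mes-4 libraries were below both wild type libraries. The log2 fold change was -1.09 (SE 0.28), with an adjusted p of 0.192 in edgeR and 0.028 in DESeq2. Without met-1 mes-4 replicate 2 the DESeq2 call held (adjusted p = 0.0189), but it ended when any other library was left out, namely met-1 mes-4 replicate 1 (0.646), wild type replicate 1 (0.562) or wild type replicate 2 (0.485).

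Restricting to tested clec genes whose groups did not overlap and whose mean reached 1 CPM, the 5 highest log2 fold changes belonged to clec-70 (1.98), clec-3 (1.95), clec-52, clec-71 and clec-196 (1.52). The gene clec-70, another gene known from Staphylococcus aureus infection, had 4.13 and 7.24 CPM in met-1 mes-4 larvae, against 0.541 and 2.24 CPM in wild type larvae. Its libraries differed among themselves in both groups, and neither test called it (adjusted p = 0.31 in edgeR and 0.0885 in DESeq2), although DESeq2 did when wild type replicate 2 was left out. For clec-3 the values were 6.43 and 1.54 CPM, against 1.44 and 0.522 CPM in wild type larvae, so the groups were barely apart. This gene shares exon sequence with C41H7.2 on the opposite strand. For clec-196, a short gene model, they were 2.89 and 0.94 CPM, against 0.872 and 0.399 CPM in wild type larvae. Here too the gap between the groups was smaller than the spread within the met-1 mes-4 group.

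At the other end stood clec-53, clec-22 (-0.93), clec-210 (-0.69), clec-28 (-0.53) and clec-185 (-0.48). For clec-22 the values were 0.688 and 1.08 CPM in met-1 mes-4 larvae, against 1.38 and 1.90 CPM in wild type larvae. For clec-185 they were 6.26 and 5.47 CPM, against 7.45 and 8.31 CPM in wild type larvae. Neither test called these 4 genes (edgeR adjusted p from 0.352 to 0.432). Exon sequence of clec-210 overlaps srt-56 on the opposite strand.

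**Figure D3:**
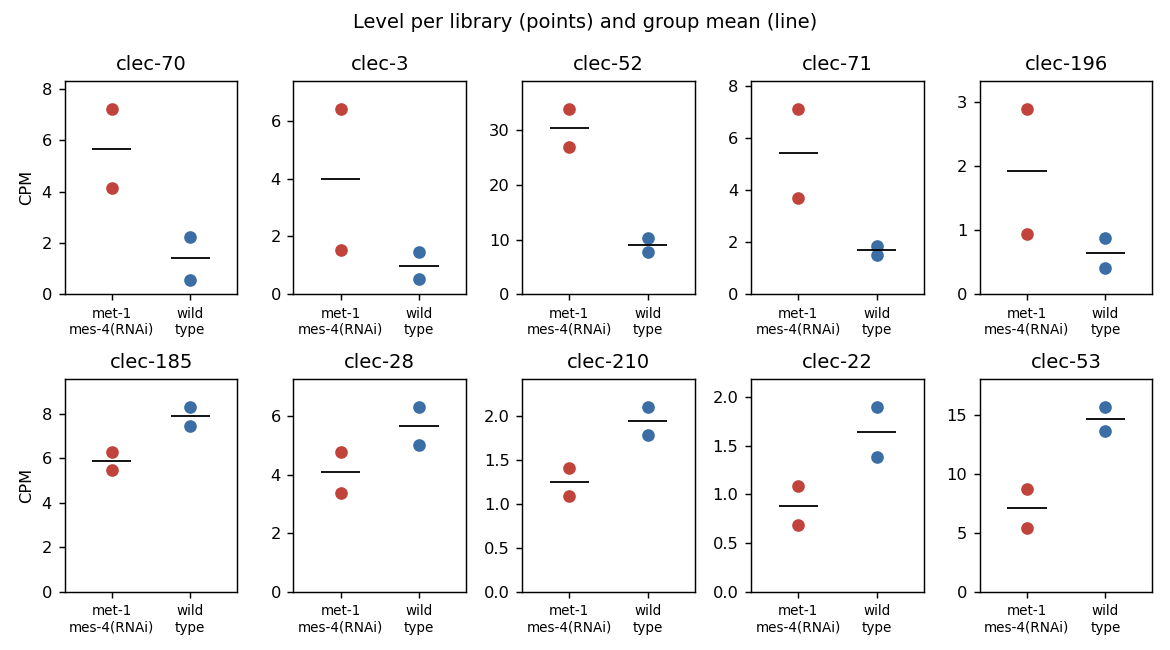
CPM per library (points) and group mean (lines) of the 5 highest (upper row) and 5 lowest (lower row) log2 fold changes among clec genes whose groups did not overlap and whose mean reached 1 CPM. Each vertical axis starts at 0. In clec-52 the groups are far apart relative to their spread, whereas in clec-3 and clec-196 the lower met-1 mes-4(RNAi) library lies just above the wild type points.

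A list of 15 clec genes known from other work on bacterial infection or bacterial toxin was read as a group. The list was chosen with earlier results of these data known. Of its members 13 were tested, 10 had a positive log2 fold change and the median was 0.44, against 0.10 for the 101 tested clec genes outside the list. DESeq2 called 2 higher, clec-52 and clec-71, and 0 lower, against 2.45% higher and 1.92% lower over all tested genes. Called by edgeR were 0, with 4 higher and 0 lower at an unadjusted p under 0.05, against 7.74% and 6.82% over all tested genes. The groups did not overlap for 6 higher members and for 0 lower ones, against 27.1% and 18.3% over all tested genes. With 13 tested members each of these shares rests on few genes. The median was 0.68 without wild type replicate 1 and 0.45 to 0.53 without any other single library. The genes clec-60 and clec-29 did not pass the filter, with at most 11 reads in any library.

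Within that list the members known to matter for Serratia marcescens, clec-39 and clec-49, lay at different levels. The gene clec-49 had 20.6 and 19.97 CPM in met-1 mes-4 larvae, against 14.97 and 13.9 CPM in wild type larvae. Replicates agreed closely and the groups were apart, with a log2 fold change of 0.44 (SE 0.13), an unadjusted p of 0.0185 and an adjusted p of 0.232 in edgeR. For clec-39, under 1 CPM in every library, the values were 0.963 and 0.798 CPM, against 0.631 and 0.46 CPM in wild type larvae.

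Targets of the PMK-1 MAP kinase pathway on the list are clec-67 and clec-85. The gene clec-67 had 29.02 and 26.3 CPM in met-1 mes-4 larvae, against 16.02 and 21.9 CPM in wild type larvae, without overlap (log2 fold change 0.49, SE 0.20, edgeR adjusted p = 0.37). For clec-85 the groups overlapped, at 5.16 and 8.004 CPM, against 3.34 and 6.32 CPM in wild type larvae, and its exons overlap those of Y54G2A.40 on the same strand. Of the genes known from Bacillus thuringiensis infection, clec-41 had 108.7 and 71.8 CPM, against 62.9 and 78.9 CPM in wild type larvae. In clec-42 the values were 65.1 and 58.6 CPM, against 93.0 and 64.9 CPM in wild type larvae. The signs of their log2 fold changes, 0.29 and -0.40, were opposite, and in both genes the groups overlapped.

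The remaining tested members of the list were clec-4, clec-17, clec-61 and clec-86, whose groups overlapped. The log2 fold change was -0.11 for clec-4, 0.58 for clec-17, -0.81 for clec-61 and 0.36 for clec-86. For clec-61 the wild type libraries held 1.47 and 0.184 CPM, and leaving out replicate 1 gave 1.29. Outside the list, clec-38, known from axon guidance, had 0.86 and 1.54 CPM in met-1 mes-4 larvae, against 1.29 and 1.32 CPM in wild type larvae.

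The most abundant members, clec-63 and clec-50, differed little between the groups. For clec-63 the values were 931.4 and 889.7 CPM in met-1 mes-4 larvae, against 791.0 and 791.3 CPM in wild type larvae. The groups were apart, yet the log2 fold change was 0.15 (SE 0.11, edgeR adjusted p = 0.617). For clec-50 the values were 345.5 and 375.9 CPM, against 408.1 and 374.2 CPM in wild type larvae, with overlap. Of the 12 most abundant clec genes edgeR and DESeq2 called 0, against 2.45% higher and 1.92% lower by DESeq2 over all tested genes. At an unadjusted edgeR p under 0.05 there were 0, against 7.74% higher and 6.82% lower over all tested genes. The log2 fold changes of these 12 genes ran from -0.49 (clec-1) to 0.35 (clec-173). With single libraries left out, that of clec-1 ran from -0.89 to -0.027.

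Log2 fold changes of neighbouring clec genes did not all have the same sign. The cluster from clec-67 to clec-79 on chromosome IV holds 11 clec genes. All 8 tested members had a positive log2 fold change, against 51.5% of all tested genes. The median was 0.44, with a range from 0.08 (clec-75) to 1.98 (clec-70). DESeq2 called 1 of them higher, clec-71, against 2.45% of all tested genes. The cluster members clec-67, clec-70 and clec-71 are also on the infection list, so the results of list and cluster share genes. The summed level of the cluster was 89.3 and 93.6 CPM in met-1 mes-4 larvae, against 60.9 and 65.1 CPM in wild type larvae. Leaving out met-1 mes-4 replicate 2 gave a median of 0.74, and leaving out wild type replicates 1 or 2 gave 0.93 or 0.39. Without met-1 mes-4 replicate 1 it was 0.45, and 6 of the 8 were positive. Its member of highest wild type RPKM, clec-72, had 30.2 and 41.1 CPM, against 27.4 and 29.5 CPM in wild type larvae.

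In the cluster of 13 from clec-40 to clec-33 on chromosome V the signs ran the other way. Of 12 tested members 3 were positive, against 51.5% of all tested genes, and the median was -0.11. There edgeR and DESeq2 called 0, against 2.45% higher and 1.92% lower by DESeq2 over all tested genes. At an unadjusted edgeR p under 0.05 there were 0, against 7.74% higher and 6.82% lower over all tested genes. The median was -0.23 without met-1 mes-4 replicate 1 and -0.18 without wild type replicate 2, and 2 to 5 members were positive with any single library left out. The summed level there was 38.03 and 33.7 CPM in met-1 mes-4 larvae, against 42.3 and 37.95 CPM in wild type larvae, with a slight overlap. In the abundant cluster from clec-62 to clec-66 the sum was 1098 and 1018 CPM, against 943.2 and 921.6 CPM in wild type larvae. Most of that sum was clec-63, and within the cluster clec-65 had a log2 fold change of -0.12 and clec-62 one of 0.45.

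By chromosome, the tested clec genes of IV, the cluster from clec-67 to clec-79 among them, had a median log2 fold change of 0.31. On IV 27 of 35 were positive, against 51.5% of all tested genes. Tested clec genes of V had a median of -0.02, with 21 of 44 positive. The median of chromosome IV was 0.18 without met-1 mes-4 replicate 1 and 0.14 without wild type replicate 2. The medians were 0.36 on X (3 tested), 0.01 on II (18 tested), -0.05 on III (6 tested) and -0.18 on I (8 tested). Whether clusters or chromosomes differ from each other was not tested.

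**Figure D4:**
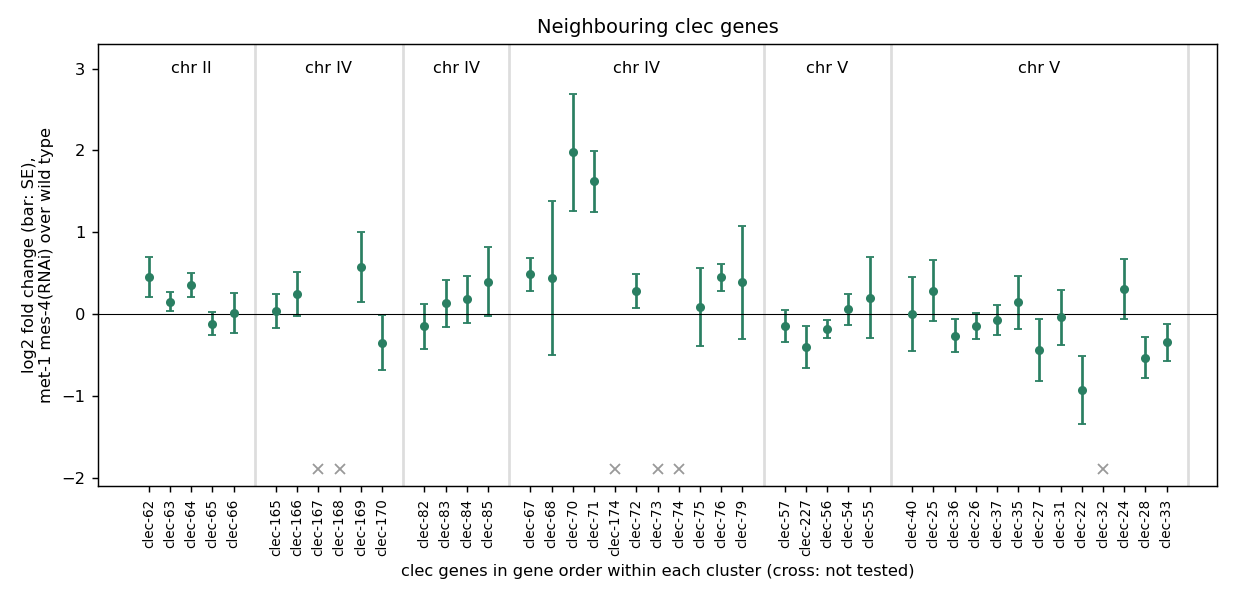
Log2 fold change (met-1 mes-4(RNAi) over wild type, edgeR, with SE bars) of clec genes in gene order for the 6 clusters with at least 4 tested members. Crosses mark members that were not tested. In the cluster with clec-70 and clec-71 all tested members lie above 0, while in the last cluster most lie below.

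Several clec genes differed between replicates in the same direction in both groups. This was not particular to clec genes. Differences between replicates 1 and 2 correlated between the groups at 0.646 over all tested genes and 0.672 over tested clec genes. In 7 tested clec genes replicate 1 exceeded replicate 2 at least 2-fold in both groups, namely clec-3, clec-61, clec-78, clec-87, clec-88, clec-91 and clec-266, and in 0 was it the other way round. They are named for this pattern and were picked from their values. The widest spread was in clec-266, at 14.6 and 0.883 CPM in met-1 mes-4 larvae, against 3.97 and 0.614 CPM in wild type larvae. Both replicate 1 libraries were high and both replicate 2 libraries low.

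The genes clec-87, clec-88 and clec-91 combined this replicate difference with a lower level in met-1 mes-4 larvae at each replicate number. For clec-87 the values of replicates 1 and 2 were 9.42 and 1.62 CPM in met-1 mes-4 larvae, against 14.6 and 7.06 CPM in wild type larvae. For clec-88 they were 6.36 and 1.17 CPM, against 10.1 and 4.63 CPM in wild type larvae. The log2 fold changes of these 3 genes were -1.33 to -1.04, the groups overlapped and neither test called them. Leaving out met-1 mes-4 replicate 1 sets its low replicate 2 alone against both wild type replicates. Such a fit cannot separate the group difference from the replicate difference in these genes. A list of 14 oogenesis and eggshell genes, drawn up after this pattern was seen, had a median log2 difference between replicates 1 and 2 of 0.79 in met-1 mes-4 larvae and 0.77 in wild type larvae. Its median log2 fold change was -0.91 (12 tested, 0 called by edgeR or DESeq2, 4 lower and 0 higher at an unadjusted edgeR p under 0.05, against 6.82% and 7.74% of all tested genes), and its part in the clec values was not tested. The exons of clec-87 overlap those of iars-2 on the opposite strand, which is itself among the genes called by DESeq2. Those of clec-91 and clec-266 also overlap a gene on the opposite strand, and those of clec-88 a gene on the same strand.

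**Figure D5:**
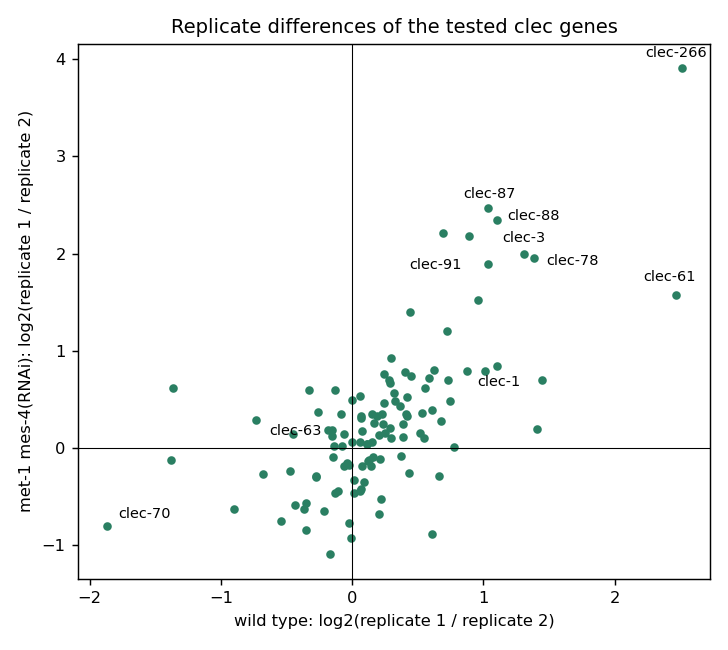
Log2 ratio of replicate 1 to replicate 2 of each tested clec gene (CPM plus 0.1) in met-1 mes-4(RNAi) larvae (vertical axis) and in wild type larvae (horizontal axis). The 7 genes named for this pattern lie far up and to the right, while clec-63 lies near the origin.

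At the low end, met-1 mes-4 larvae had reads for more clec genes: 184 and 177, against 170 and 167 in wild type larvae. The same held for all genes, of which 18397 and 18108 were detected in met-1 mes-4 larvae, against 17884 and 17581 in wild type larvae. The smallest library, met-1 mes-4 replicate 1, had the most genes with reads in both counts. Among tested genes clec-238, singled out after its values were seen, had 14 and 11 reads in met-1 mes-4 larvae and 0 in both wild type libraries. Set against a floor of 3 reads in each wild type library, its mean CPM in met-1 mes-4 larvae was 4.36-fold higher (edgeR adjusted p = 0.14). This gene passed the filter on low counts through its met-1 mes-4 libraries alone.

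Few clec genes crossed the mark of 1 CPM in both libraries. In met-1 mes-4 larvae 87 clec genes reached it, against 86 in wild type larvae. The 5 that reached it in met-1 mes-4 larvae alone were clec-3, clec-25, clec-55, clec-70 and clec-145, and the 4 that did so in wild type larvae alone were clec-22, clec-27, clec-38 and clec-91. The 126 untested clec genes together held 364 and 208 reads in met-1 mes-4 larvae, against 214 and 138 reads in wild type larvae, with overlap.

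Regulators of intestinal immunity and intestinal transcription were read as a further list. The list held 18 genes, all tested, of the PMK-1 pathway, intestinal transcription and other pathways, such as daf-2, daf-16, bar-1, dbl-1 and sma-3. Among these 18 genes edgeR and DESeq2 called 0, 0 had an unadjusted edgeR p under 0.05, and the median log2 fold change was -0.05. Over all tested genes edgeR called 0.0% and DESeq2 2.45% higher and 1.92% lower, so 0 calls among 18 genes is near the background. The transcription factor gene zip-2, known to be activated when translation is blocked by bacterial toxin, had 613.5 and 306.4 CPM in met-1 mes-4 larvae, against 300.0 and 228.0 CPM in wild type larvae. Its groups were only just apart (log2 fold change 0.74, edgeR adjusted p = 0.395). For skn-1, a stress response factor, the log2 fold change was 0.25, and for the TGF-beta ligand gene dbl-1 it was -0.34.

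Other effector families were counted in the same way. Of 51 tested lysozyme, saposin-like, caenacin and related genes, edgeR and DESeq2 called 0 (2 higher and 1 lower at an unadjusted edgeR p under 0.05, against 7.74% and 6.82% of all tested genes), with a median of 0.14. The lowest p belonged to the invertebrate-type lysozyme gene ilys-3, at 1.13 and 1.42 CPM in met-1 mes-4 larvae, against 0.27 and 0.307 CPM in wild type larvae (log2 fold change 2.09, edgeR adjusted p = 0.123). Lysozyme gene lys-4 had a log2 fold change of -0.88 and the infection response gene irg-5 one of 1.20. Of the 12 galectin genes, which encode lectins of a different fold, DESeq2 called 2 higher, lec-2 (log2 fold change 0.60, adjusted p = 0.0175) and lec-5 (0.998, adjusted p = 0.0133), against 2.45% of all tested genes. Among galectins edgeR called 0 (3 higher and 0 lower at an unadjusted p under 0.05, against 7.74% and 6.82% of all tested genes). In lec-5 the values were 261.0 and 420.1 CPM in met-1 mes-4 larvae, against 146.6 and 183.8 CPM in wild type larvae.

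The intestine markers, listed beside these results because many clec genes are intestinal, had a median log2 fold change of -0.09 over 9 genes, of which 0 were called by edgeR or DESeq2 (1 lower, the intestinal actin gene act-5, at an unadjusted edgeR p under 0.05). Of the 9 intestine markers 1 had a positive log2 fold change, against 51.5% of all tested genes. All 9 had reads in every library. Medians were 0.03 for the 7 neuron markers, 0.14 for the 5 body wall muscle markers, -0.01 for the 5 tested hypodermis markers, 0.19 for the 7 pharynx markers, -0.08 for the 2 coelomocyte markers and -0.04 for the 7 germline markers. Among these markers DESeq2 called the muscle myosin gene myo-3 higher and edgeR called 0 (outside the intestine list, 3 higher and 0 lower at an unadjusted p under 0.05). Over all tested genes DESeq2 called 2.45% higher and 1.92% lower. At an unadjusted edgeR p under 0.05 the shares over all tested genes were 7.74% higher and 6.82% lower. The part of tissue makeup in the clec values was not tested.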

How the data were processed

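RNA-seq of total RNA (ScriptSeq Complete Gold kit, per the labels' protocols) gave 4 libraries. The authors deposited raw counts per gene with gene model lengths, and log2 values. Worked out from the deposited files, each log2 value is log2(count × factor + 8), with 1 factor per library. The build ce10 comes from the submitters' processing notes; the sources used here do not name the aligner, counter, annotation or strand setting, so overlapping or near-identical clec genes may share or lose reads. Symbols, gene order and exon overlaps came from WBcel235 tables, which name 19182 of the identifiers. No sequence was used.

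Tests were fitted on all genes kept by filterByExpr: edgeR 4.0.16 (TMM, quasi-likelihood F-test, no block) and DESeq2 1.42.0 (Wald test), in R 4.3.3, with Benjamini-Hochberg adjustment. Each SE was worked out from the F statistic. Simulated counts with known changes were used to check the fits. CPM and RPKM use library totals; the floor for a count of 0 is 3 reads per library and covers counting error only. At 5 CPM, counting error is 8.29% in the smallest library, against a biological coefficient of variation of 22.1%. p-values measure only the spread between 2 libraries a group.

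Genes were named by rule: the 12 most abundant clec genes, every call, the 5 highest and 5 lowest log2 fold changes, the infection list, clec-38, and up to 3 members of other lists. Members and lists were chosen with earlier results of these data known. The alternatives were other scalings, filters and tests (limma 3.58.1 among them), a replicate block, and leaving out each library. A planned check for near-identical proteins was not made. Figures used matplotlib 3.10.9.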

Additional observations from a re-analysis of the deposited data

How the results depend on the processing

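Among clec genes edgeR called 0 higher and 0 lower with RLE size factors, with library size only, with genes kept only at 5 CPM or more in 2 libraries (2 and 0 over all genes) and without any single library (24 and 3 over all genes without met-1 mes-4(RNAi) replicate 1). Both limma-voom and limma on the authors' normalized values also called 0. With no filter edgeR called 1 higher and 0 lower, and 88 higher and 40 lower over all genes. DESeq2 called 2 higher and 1 lower on the same genes as the first edgeR fit, with 367 and 288 over all genes. DESeq2's clec calls were 1 higher and 1 lower with the filter of 5 CPM. Over the fits that left out 1 library they were 1 to 2 higher and 0 to 2 lower, with 101 to 149 higher and 38 to 81 lower over all genes. Same-numbered libraries shifted in the same direction (correlation 0.646 over all tested genes and 0.672 over tested clec genes), but the labels do not say that a number marks a shared batch, so no pairing was assumed. With the replicate block edgeR called 20 higher and 7 lower of 114 clec genes (1540 and 1507 of 15008 over all genes). DESeq2 with the block called 7 higher and 4 lower (696 and 691 over all genes). In both tests the clec share called higher was then above that over all genes, and the share called lower below it. Both tests then called clec-3, clec-17, clec-48, clec-52, clec-70, clec-71 and clec-266 higher and clec-1, clec-53, clec-87 and clec-88 lower. Called lower by edgeR alone were clec-42, clec-91 and clec-199. Called higher by edgeR alone were clec-43, clec-47, clec-49, clec-62, clec-64, clec-67, clec-76, clec-80, clec-173, clec-186, clec-187, clec-196 and clec-238. The median log2 fold change of the tested clec genes was 0.26 without a filter, where 210 clec genes entered, and ran from 0.0287 to 0.163 without single libraries. With library size only it was 0.19 and that of all genes 0.06. Medians of the infection list, of chromosome IV and of clec clusters without single libraries were added after seeing the data. The number of clec genes expressed in wild type was 55 at 5 CPM. Of 32 named and tested clec genes, 20 kept the sign of the log2 fold change in all alternatives. The other 12 turned only when a library was left out. Their ranges were -0.92 to 0.0749 for clec-10, -0.0855 to 0.28 for clec-149, -0.17 to 0.53 for clec-265, -0.68 to 0.22 for clec-38, -0.25 to 0.0168 for clec-4, -0.00095 to 0.53 for clec-41, -0.34 to 0.0333 for clec-57, -2.03 to 1.29 for clec-61, -0.27 to 0.0187 for clec-65, -0.18 to 0.47 for clec-84, -0.0129 to 0.97 for clec-85 and -0.0647 to 0.69 for clec-86. A group left with 1 library was assumed to vary like the other. The cause of these differences was not tested.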
